A study of Rattus norvegicus with 18 samples.

Results

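The genes described here are 9 components of the brain's hyaluronan matrix and its partners: the lecticans Acan, Bcan, Ncan and Vcan, the link protein Hapln1, the tenascins Tnc and Tnr, the transmembrane proteoglycan Cspg5 and the receptor phosphatase Ptprz1. They were chosen by symbol, and every probe set whose platform annotation gives 1 symbol, that of a member, was taken. All 9 genes were found, of 13811 genes with such a probe set, through 17 of 31256 probe sets. Of these 17, 16 lay on 1 Affymetrix array type, called array A here, and 1 on a second type, array B.

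The samples were O4+ cells (4 replicates) and A2B5+ cells (5 replicates), each replicate sorted from the dissociated whole brains of a litter of 10 male rat pups at postnatal day 7 and measured on both array types. No strain is given in the labels, no pup was treated, and pups of a litter were pooled. O4 is an antibody to sulfatide and related lipids of late progenitors and oligodendrocytes, and A2B5 is an antibody to gangliosides of glial progenitors and some neurons. The labels do not say whether O4+ and A2B5+ replicates shared litters, and each test weighs a difference against the spread among litters of the same population. By 100 probe sets present on both array types, each A2B5+ replicate of array A correlated best with the replicate of the same number on array B, while O4+ replicates 1, 2, 3 and 4 of array A correlated best with O4+ replicates 3, 4, 1 and 2 of array B. O4+ replicate numbers are therefore not compared across array types.

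Lecticans are secreted core proteins that carry chondroitin sulfate chains, bind hyaluronan at one end and tenascins at the other, and are held on hyaluronan by link proteins. Tnr, tenascin-R, is a matrix protein made by oligodendrocyte lineage cells and some neurons, and Tnc, tenascin-C, is made by astrocyte precursors and radial glia. Ptprz1 is a receptor tyrosine phosphatase whose secreted form is the proteoglycan phosphacan, which binds tenascins and contactins. Cspg5, neuroglycan C, spans the membrane. Progenitors of oligodendrocytes are known to make several of these proteins.

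The start regions of the members with the largest rise (Tnr), the next largest rise (Vcan) and the largest fall (Tnc) are shown first, because these genes carry the contrast described below. Each is 300 bases from RefSeq on GRCr8, 250 before and 50 after the start of a transcript, written 5′ to 3′ on the strand of the gene. Capitals mark E-box letters (CANNTG, bound by basic helix-loop-helix factors), searched on both strands with overlaps allowed. The core letters ACAAAG and ACAATG of SOX factor sites were searched in the same way and were not in these 3 windows. The Tnr window lies inside the annotated span of the gene, at a transcript start 339.9 kb from the annotated start of the gene. Vcan had another window, at a transcript start 0.1 kb inside the gene, which is not shown.
Tnr (chr13:74624776-74625075, plus strand): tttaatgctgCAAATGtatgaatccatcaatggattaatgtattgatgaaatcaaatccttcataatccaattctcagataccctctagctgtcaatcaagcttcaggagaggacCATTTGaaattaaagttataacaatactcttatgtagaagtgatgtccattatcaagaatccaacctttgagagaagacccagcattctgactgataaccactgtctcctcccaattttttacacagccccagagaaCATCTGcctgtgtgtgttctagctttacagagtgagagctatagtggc
Vcan (chr2:22595906-22596205, minus strand): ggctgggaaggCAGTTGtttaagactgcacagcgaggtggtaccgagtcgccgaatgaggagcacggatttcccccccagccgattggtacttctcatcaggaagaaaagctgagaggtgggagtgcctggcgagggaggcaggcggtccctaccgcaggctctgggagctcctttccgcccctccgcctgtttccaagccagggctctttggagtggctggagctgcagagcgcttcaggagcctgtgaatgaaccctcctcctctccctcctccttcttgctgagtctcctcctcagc
Tnc (chr5:82476082-82476381, minus strand): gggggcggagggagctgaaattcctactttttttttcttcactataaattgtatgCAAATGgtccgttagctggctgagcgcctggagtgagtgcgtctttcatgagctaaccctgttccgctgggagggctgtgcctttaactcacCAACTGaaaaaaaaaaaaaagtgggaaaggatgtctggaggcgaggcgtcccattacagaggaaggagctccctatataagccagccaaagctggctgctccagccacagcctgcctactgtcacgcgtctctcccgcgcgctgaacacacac
The E-box letters stood 3 times in the Tnr window, 1 time in the Vcan window and 2 times in the Tnc window, and at least once in 72.1% of the 33469 windows in the table. SOX core letters stood in 29.1% of all windows. The GC content of the 3 windows was 38.3% for Tnr, 61.0% for Vcan and 52.3% for Tnc, against a median of 51.7% over all windows. Windows were found for 7 of the 9 members. These matches describe letters only.

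Values are the deposited ratios, in which a probe set's median over its 9 arrays is 1, or below 1. A ratio therefore compares arrays for 1 probe set, and no level can be set against that of another gene. Where the populations do not overlap, the array at exactly 1 is the A2B5+ array nearest to the O4+ arrays. Differences are log2 ratios, O4+ minus A2B5+, with the standard error (SE) of limma, n = 4 and 5, and a difference was called at a Benjamini-Hochberg adjusted p under 0.05 over all tested probe sets of the array type. Probe sets that reached a ratio of 1 on 4 or more of the 9 arrays were tested.

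Of the 17 probe sets, 15 passed this filter. On array A, 8 of 14 tested member probe sets were higher in O4+ cells and 4 were lower, where 32.5% of all tested probe sets were higher and 14.7% lower. On array B the 1 probe set was called in neither direction, where 9.93% of all tested were higher and 13.8% lower. By gene, Tnr, Vcan, Bcan and Acan had higher probe sets, Tnc, Cspg5 and Ptprz1 had lower ones, Hapln1 had neither, and Ncan was not tested. The populations did not overlap for 11 of the 14 probe sets on array A, where 44% of all tested did not overlap. The median difference of the 14 was 0.56, and that of all tested probe sets on array A was 0.26. With each array centred on its median, a scaling that lowers every array A difference by 0.17, 5 member probe sets were higher and 4 lower, and the shares over all probe sets became 18.6% and 17.9%. The 3 calls lost were both Acan probe sets and 1 of Vcan. The higher count also fell to 5 when O4+ replicate 2, O4+ replicate 4 or A2B5+ replicate 1 was left out, while the lower count was 4 without any 1 replicate. In these fits the higher calls over all 13098 tested probe sets fell as well, from 4259 to 3739, 3271 and 3230. The lower calls over all went from 1929 to 1969, 1646 and 1778. In sorted bulk samples, fewer cells of a type and less RNA per cell cannot be told apart.

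**Figure D1:**
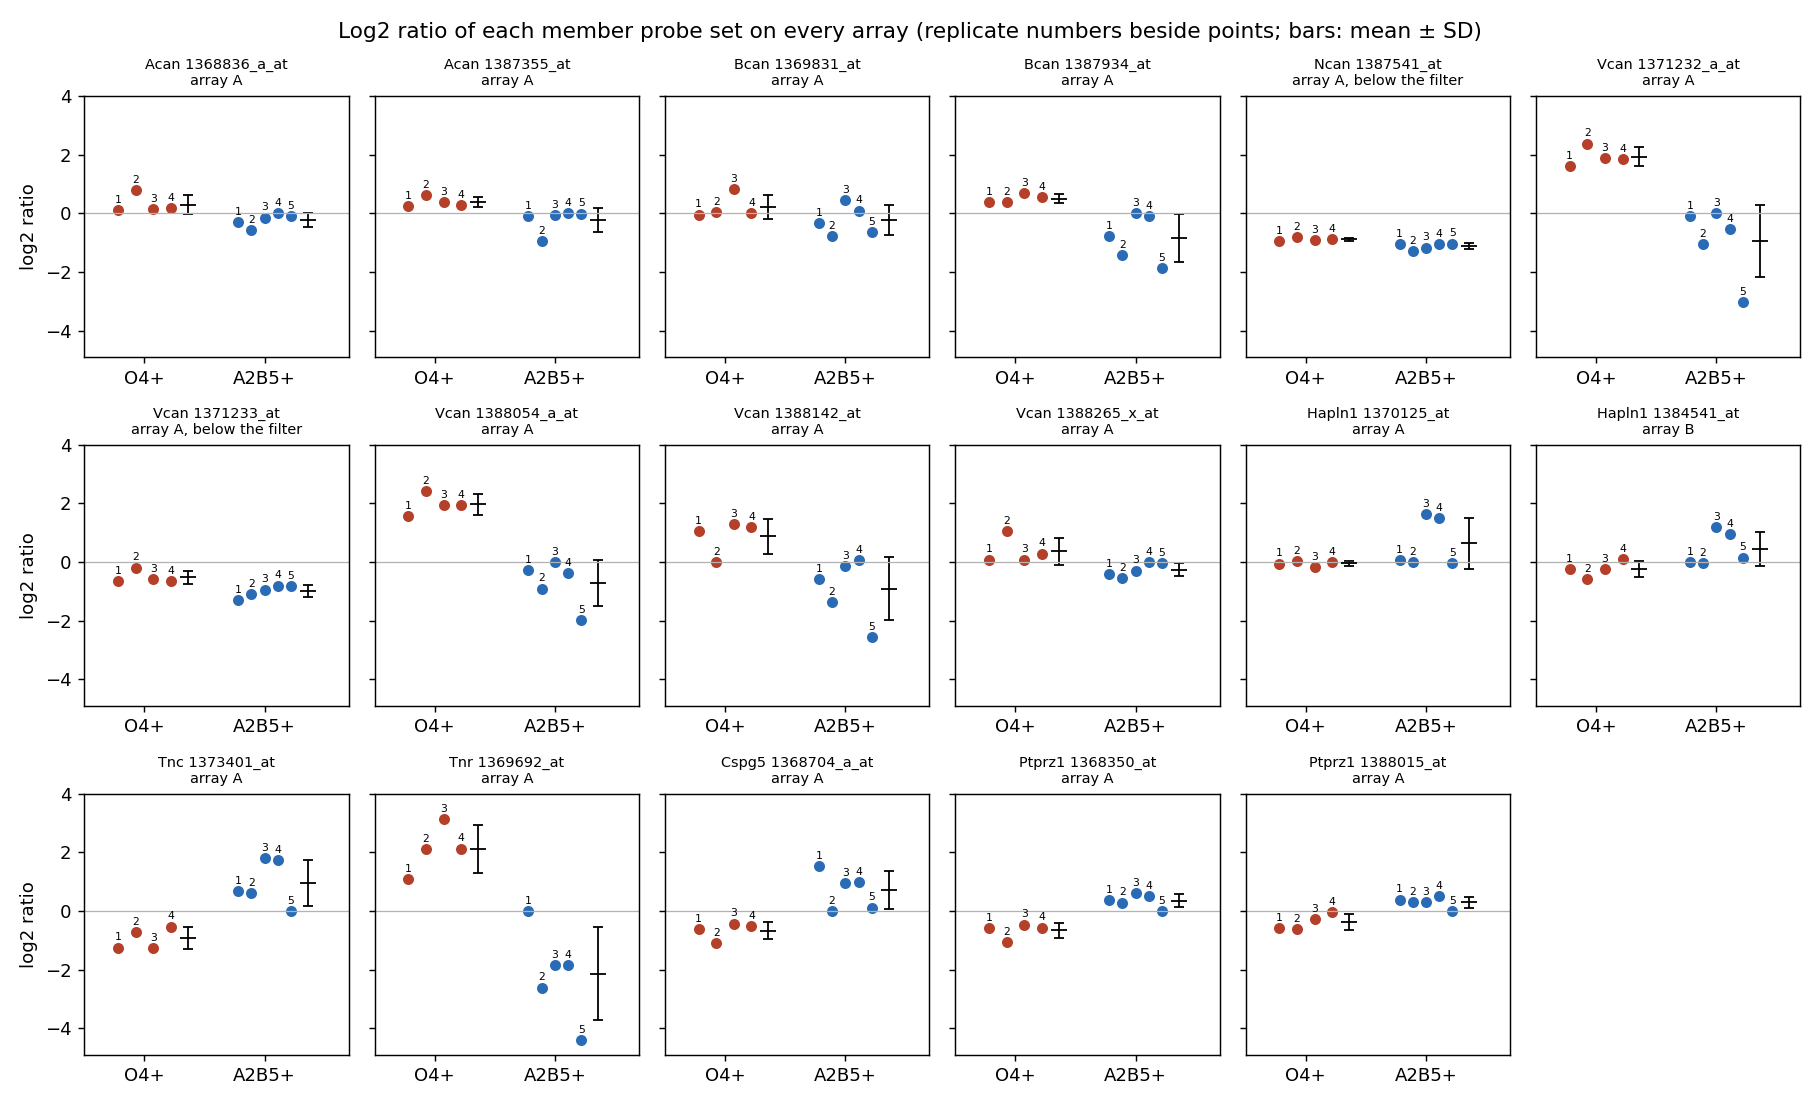
Log2 ratios of all 17 member probe sets on each array, with O4+ arrays left of A2B5+ arrays, the replicate number beside each point, and the mean ± SD as a black bar. Tnr and 3 Vcan probe sets lie higher in O4+ cells, and Tnc, Cspg5 and Ptprz1 lie lower. The A2B5+ points spread more widely than the O4+ points for most probe sets, among them those of Tnr, Tnc, Hapln1, Bcan and Cspg5 and the same 3 of Vcan.

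Tnr had the largest difference of the members. Its ratios were 2.14, 4.28, 8.77 and 4.36 in O4+ replicates 1 to 4, against 1.00, 0.163, 0.276, 0.278 and 0.0474 in A2B5+ replicates 1 to 5. Every O4+ array lay above every A2B5+ array, and the A2B5+ arrays themselves spanned 21.1-fold. The difference was 4.26 ± 0.73, or 19.1-fold with a 95% interval of 6.21 to 58.9 (adjusted p = 0.0012). It was 4.09 ± 0.76 with arrays centred (adjusted p = 0.0025). Leaving out single replicates gave 3.69 to 4.79. The lowest value over all alternatives was 3.11, with 0.25 added to each ratio before log2.

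Tnc, the other tenascin, went the opposite way. Its ratios were 0.421, 0.612, 0.418 and 0.692 in O4+ cells, against 1.60, 1.53, 3.49, 3.32 and 1.00 in A2B5+ cells. The populations did not overlap, and A2B5+ replicates 3 and 4 were the highest arrays. Tnc fell by 1.90 ± 0.37 on the log2 scale, 3.74-fold lower in O4+ cells with a 95% interval of 2.13 to 6.56 (adjusted p = 0.0023), and the call held under each alternative tried, with differences of -2.33 to -1.52. Astrocyte and radial glia markers were also lower in O4+ cells, 9 of 13 tested genes with 0 higher and 1 called both ways. Their mean log2 ratio on array A was -0.92 to -0.38 in O4+ arrays and -0.03 to 0.91 in A2B5+ arrays, highest in A2B5+ replicates 3 and 4, the arrays with the highest Tnc. The part of these cells in the Tnc difference was not tested.

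Vcan, versican, is a large lectican of progenitors and of the matrix at nodes of Ranvier. It had 5 probe sets, which differed in size. For 1371232_a_at the ratios were 3.08, 5.19, 3.65 and 3.61 in O4+ cells, against 0.934, 0.487, 1.00, 0.690 and 0.122 in A2B5+ cells. For 1388054_a_at they were 2.96, 5.32, 3.85 and 3.86 in O4+ cells, against 0.827, 0.534, 1.00, 0.777 and 0.255 in A2B5+ cells. O4+ arrays were separate from A2B5+ arrays in both, and A2B5+ replicate 5 was the lowest. The differences were 2.87 ± 0.54 (7.32-fold, adjusted p = 0.0020) and 2.67 ± 0.36 (6.37-fold, adjusted p = 2.8e-04). With 0.25 added to each ratio before log2 they were 2.30 and 2.23.

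Another Vcan probe set, 1388142_at, read 2.08, 1.00, 2.45 and 2.27 in O4+ cells, against 0.667, 0.389, 0.911, 1.05 and 0.171 in A2B5+ cells. Here O4+ replicate 2, the highest O4+ array of the other probe sets, was the lowest and overlapped the A2B5+ range. The difference was 1.79 ± 0.50 (adjusted p = 0.017), and quantile normalization ended the call (adjusted p = 0.052). The probe set 1388265_x_at read 1.06, 2.06, 1.06 and 1.22 in O4+ cells, against 0.756, 0.687, 0.819, 1.00 and 0.973 in A2B5+ cells. Its difference of 0.63 ± 0.22 (adjusted p = 0.037) was not called after centring (adjusted p = 0.090), nor without O4+ replicate 2 or 4 or A2B5+ replicate 1, 2 or 3 (adjusted p = 0.060 to 0.083). The last, 1371233_at, did not pass the filter, with ratios of 0.639 to 0.879 in O4+ cells and 0.410 to 0.573 in A2B5+ cells. In the fit without a filter, where 44.9% of probe sets were called higher, it was called higher too (adjusted p = 0.027). The annotation gives the same sequence accession for 1371232_a_at, 1371233_at and 1388265_x_at, and no source used here says which Vcan transcripts each one reads.

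Bcan, brevican, is a lectican of the nervous system made by astrocytes and oligodendrocyte progenitors. Its probe set 1387934_at read 1.30, 1.30, 1.60 and 1.46 in O4+ cells, against 0.583, 0.370, 1.00, 0.941 and 0.275 in A2B5+ cells. The O4+ arrays lay close together and above all A2B5+ arrays. It rose by 1.33 ± 0.36, or 2.51-fold (adjusted p = 0.014; 0.034 with arrays centred). The probe set 1369831_at read 0.970, 1.02, 1.76 and 1.00 in O4+ cells, against 0.799, 0.585, 1.38, 1.07 and 0.638 in A2B5+ cells. The populations overlapped, and its difference of 0.44 ± 0.28 was not called (95% interval -0.18 to 1.06, adjusted p = 0.21).

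Acan, aggrecan, the lectican of perineuronal nets and cartilage, had the smallest called differences. Its probe set 1368836_a_at read 1.07, 1.73, 1.10 and 1.12 in O4+ cells, against 0.819, 0.666, 0.905, 1.00 and 0.934 in A2B5+ cells. Its probe set 1387355_at read 1.19, 1.55, 1.30 and 1.22 in O4+ cells, against 0.937, 0.521, 0.961, 1.00 and 0.992 in A2B5+ cells. O4+ arrays lay just above A2B5+ arrays in both. The differences were 0.52 ± 0.18 (adjusted p = 0.040) and 0.61 ± 0.21 (adjusted p = 0.036). Neither was called after centring (adjusted p = 0.11 and 0.096). The first was lost without O4+ replicate 2, 3 or 4 or A2B5+ replicate 1, 2 or 3 (adjusted p = 0.053 to 0.088). The second was lost without any 1 of the 4 O4+ replicates or without A2B5+ replicate 1 (adjusted p = 0.052 to 0.078). The 2910 array A probe sets with a median ratio under 1 moved in a like way. Their median ratio was 0.660, 0.762, 0.677 and 0.689 in O4+ arrays, against 0.507, 0.509, 0.541, 0.608 and 0.619 in A2B5+ arrays, a log2 difference of 0.33. The root mean square distance from this pattern, in centred log2 ratios, was 0.20 and 0.27 for the Acan probe sets. It was 0.27 for Vcan 1388265_x_at and 0.13 for Vcan 1371233_at. The part of this shift in the differences of these Acan and Vcan probe sets was not tested.

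Ncan, neurocan, a lectican of developing neurons and astrocytes, was among these low probe sets. It read 0.520, 0.565, 0.535 and 0.539 in O4+ cells, against 0.480, 0.412, 0.444, 0.485 and 0.489 in A2B5+ cells. Every ratio was under 1, so the probe set did not pass the filter and no fold is given. It was not called in the fit without a filter (adjusted p = 0.064).

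Hapln1, the link protein that joins lecticans to hyaluronan, differed more among A2B5+ arrays than between populations. On array A it read 0.964, 1.03, 0.889 and 1.00 in O4+ cells, against 1.04, 0.998, 3.13, 2.85 and 0.981 in A2B5+ cells. On array B it read 0.844, 0.671, 0.843 and 1.08 in O4+ cells, against 1.00, 0.986, 2.29, 1.94 and 1.11 in A2B5+ cells. On both array types A2B5+ replicates 3 and 4 stood above all other arrays, and the other 3 A2B5+ arrays lay within the O4+ range or just above it. On array B, 25.6% of all tested probe sets showed no overlap. The differences were -0.68 ± 0.37 (95% interval -1.51 to 0.15, adjusted p = 0.15) and -0.70 ± 0.29 (95% interval -1.35 to -0.04, adjusted p = 0.12). Neither was called, and with array weights both were (adjusted p = 0.016 and 0.033). The arrays of A2B5+ replicates 3 and 4 also had the highest mean log2 ratio of neuron markers on array A, 1.11 and 0.89, against -0.16 to 0.40 in the other A2B5+ arrays and -0.51 to -0.22 in the O4+ arrays. Astrocyte and radial glia markers were highest in the same arrays, as given beside Tnc. The part of either cell type in the Hapln1 values was not tested.

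The 4 link protein genes each neighbour a lectican gene in the GRCr8 annotation, with 0 coding genes between them, and the members of a pair did not share a direction in every case. Hapln1, beside Vcan, was called in neither direction, as given above. Hapln2, a link protein of nodes of Ranvier beside Bcan, read 28.5 to 93.3 in O4+ cells and 0.372 to 0.472 in A2B5+ cells, with a median ratio under 1, so its log2 difference, taken from the O4+ mean to a ratio of 1, is given as at least 5.88. This probe set passed the filter only through its O4+ arrays. The other 2 Hapln2 probe sets did not pass it, and differed far less. On array A the other one read 0.968 to 1.26 in O4+ cells and 0.680 to 0.930 in A2B5+ cells. On array B the ratios were 0.645 to 1.79 in O4+ cells and 0.504 to 0.614 in A2B5+ cells. Hapln3, beside Acan, read 0.531, 0.773, 0.673 and 0.999 in O4+ cells, against 1.86, 1.57, 1.82, 1.61 and 1.00 in A2B5+ cells. It fell by 1.08 ± 0.23 (adjusted p = 0.0096), unlike Acan, whose small rise was not called after centring. Hapln4, beside Ncan, had 3 tested probe sets with differences of 0.05, 0.25 and 0.57, of which the last was called (adjusted p = 0.021) and was lost after centring (adjusted p = 0.053). Hapln3 and Hapln4 were looked up after their values were seen.

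Cspg5 and Ptprz1, the membrane-bound proteoglycans of the group, were lower in O4+ cells. Cspg5 read 0.653, 0.464, 0.741 and 0.698 in O4+ cells, against 2.87, 1.00, 1.93, 1.96 and 1.08 in A2B5+ cells. The populations did not overlap, and A2B5+ replicates 2 and 5 were nearest to the O4+ arrays. Cspg5 was 2.60-fold lower in O4+ cells, with a 95% interval of 1.63 to 4.17 (log2 difference -1.38 ± 0.31, adjusted p = 0.0051).

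Ptprz1 read 0.671, 0.483, 0.726 and 0.674 in O4+ cells, against 1.28, 1.22, 1.51, 1.42 and 1.00 in A2B5+ cells, on probe set 1368350_at. On 1388015_at it read 0.665, 0.657, 0.823 and 0.980 in O4+ cells, against 1.31, 1.24, 1.22, 1.42 and 1.00 in A2B5+ cells. Both showed no overlap, and O4+ replicate 4 came nearest to the A2B5+ range on the second. The differences were -1.01 ± 0.17 (adjusted p = 0.0010) and -0.68 ± 0.16 (adjusted p = 0.0081), or 2.02-fold and 1.60-fold lower in O4+ cells. Both stayed called under every alternative tried, with adjusted p-values up to 0.029. Cspg4, or NG2, the progenitor proteoglycan that is no member, read 0.841, 1.00, 0.439 and 0.747 in O4+ cells, against 1.46, 1.05, 1.74, 2.12 and 0.949 in A2B5+ cells (-0.95 ± 0.29, adjusted p = 0.025), with overlap between the populations.

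**Figure D2:**
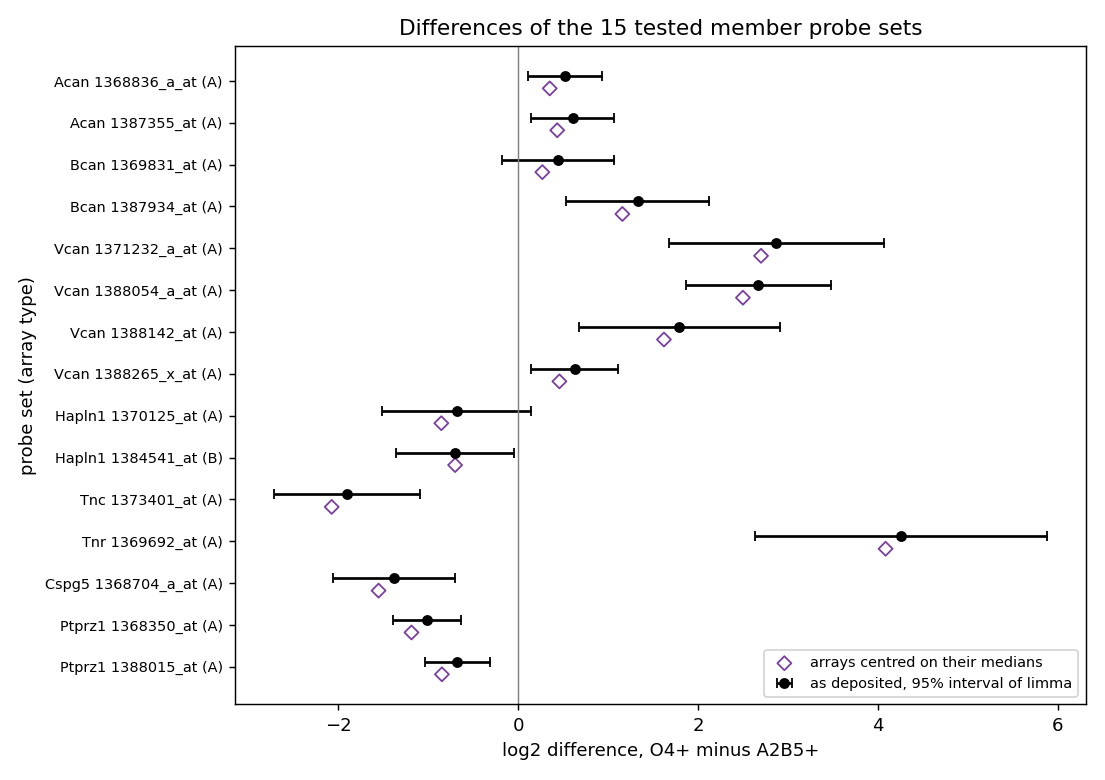
Log2 differences (O4+ minus A2B5+) of the 15 tested member probe sets, with the 95% interval of limma as a bar, and the difference after centring as an open diamond. Tnr at 4.26 and Vcan at up to 2.87 stand to the right, Tnc at -1.90 and Cspg5 at -1.38 to the left, and Acan at 0.52 and 0.61.

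Replicate 2 or 5 gave the lowest value of each tested member probe set among the A2B5+ arrays. On array A, replicate 2 or 5 was the lowest A2B5+ array in 14 of 14 tested member probe sets, and in 43.3% of all tested probe sets. Replicates 2 and 5 were the 2 lowest in 10 of the 14, and in 17.2% of all tested. The pair was picked from these same member values, so its share over all tested probe sets is a description and no test. Some of these probe sets belong to 1 gene and all come from the same 5 arrays, so they are not independent. Replicates 2 and 5 were the 2 lowest both for Tnr and for 1371232_a_at of Vcan, which were higher in O4+ cells, and for Tnc and Cspg5, which were lower. For both Acan probe sets and Vcan 1388265_x_at the 2 lowest were replicates 1 and 2, and for Ptprz1 1388015_at replicates 3 and 5. In those Acan and Vcan probe sets replicate 5, at 0.934, 0.992 and 0.973, stood next below the highest, replicate 4. Progenitor markers were low in replicates 2 and 5. Sox10, a transcription factor that oligodendrocyte cells keep at all stages, read 5.44, 6.24, 11.7 and 4.97 in O4+ cells, against 1.00, 0.206, 0.283, 0.274 and 0.0743 in A2B5+ cells, which is the order of Tnr among the A2B5+ arrays apart from replicates 3 and 4, which were close for both genes. Pdgfra, the growth factor receptor of progenitors, read 0.289, 0.751, 1.00 and 0.494 in O4+ cells, against 4.92, 1.82, 4.47, 5.88 and 0.738 in A2B5+ cells. The mean log2 ratio of 5 progenitor markers was 0.30 to 0.56 in O4+ arrays, and 0.64, -0.62, 0.14, 0.23 and -1.37 in A2B5+ replicates 1 to 5. Replicates 2 and 5 were also the 2 lowest A2B5+ arrays for astrocyte and radial glia markers, with means of 0.55, 0.24, 0.91, 0.74 and -0.03, and for neuron markers, with means of 0.40, 0.29, 1.11, 0.89 and -0.16. They were the 2 highest for microglia markers, with means of -0.01, 0.78, 0.11, 0.54 and 0.67. Myelinating oligodendrocyte markers differed little among these arrays, with means of -0.88 to -0.57. The part of the cell make-up of these arrays in the members' values was not tested. Without A2B5+ replicate 5 or without replicate 2, the called probe sets of Tnr, Tnc, Cspg5, Ptprz1 and Bcan and those of Vcan other than 1388265_x_at were called too.

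**Figure D3:**
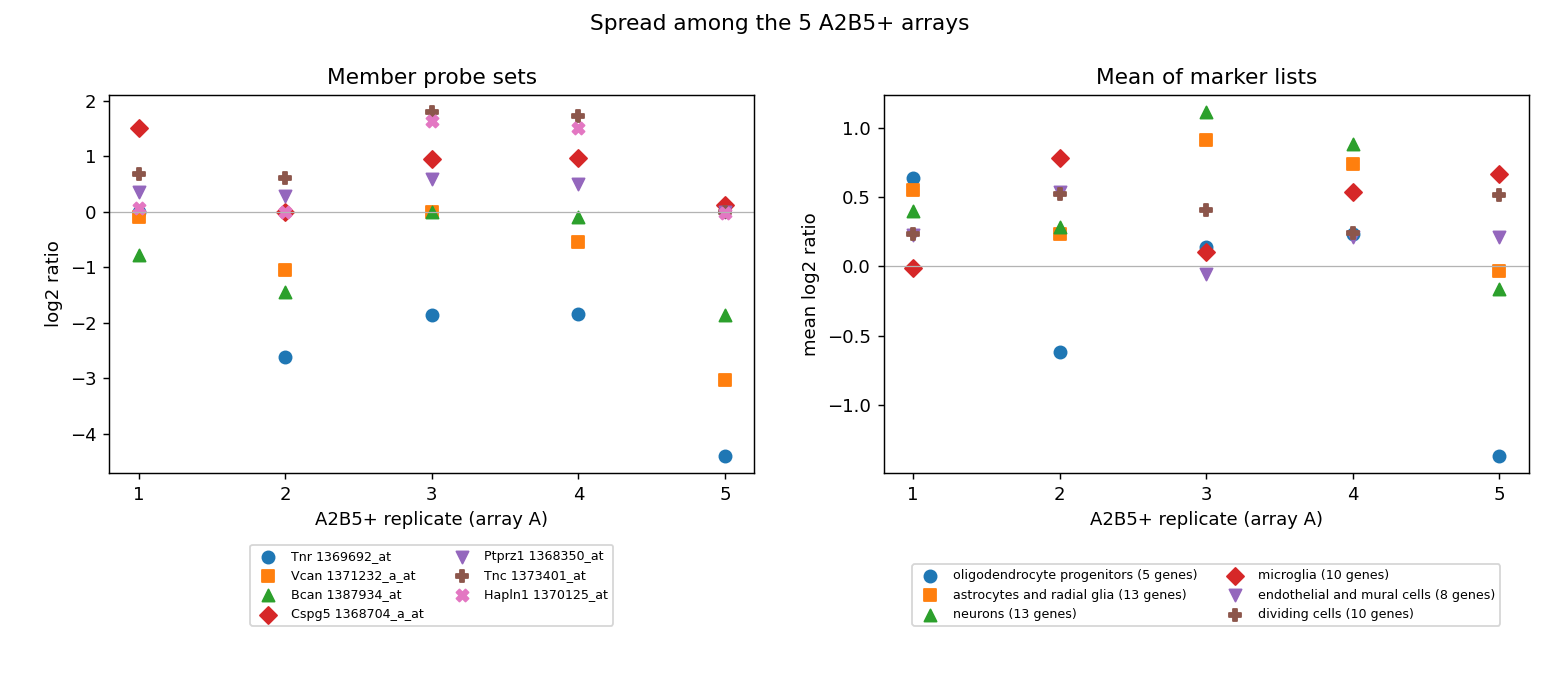
Log2 ratios of 7 member probe sets (left) and mean log2 ratios of 6 marker lists (right) in the 5 A2B5+ replicates on array A. Replicates 2 and 5 are low for Tnr, Vcan, Bcan and Cspg5 and for the progenitor, astrocyte and neuron markers, and replicates 3 and 4 are high for Tnc, Hapln1 and the astrocyte and neuron markers.

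Myelin markers separated the populations, and progenitor markers moved both ways. Of 14 tested genes of myelinating oligodendrocytes, 14 were higher in O4+ cells and 0 lower, and of 7 tested progenitor markers 3 were higher and 2 lower, and the median of the 7 differences was above 0. The higher progenitor markers included Sox10 and Olig1, and the lower ones were Pdgfra and Cspg4. Markers of neurons (8 of 14 lower, 3 higher), microglia (10 of 11 lower, 0 higher), endothelial and mural cells (8 of 11 lower, 0 higher) and dividing cells (12 of 12 lower, 0 higher) were mostly lower in O4+ cells, while over all 11982 genes tested on either array type 28.7% were higher only and 18.2% lower only.

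Patterns over the 9 arrays were also compared with those of 9044 other genes on array A, by the root mean square difference of log2 ratios centred on the mean of both population means. The nearest to Tnr were Sox10 (0.41) and Bmp4, a bone morphogenetic protein (0.45). The nearest to Tnc were the Wnt receptor Fzd2 (0.20) and the hyaluronan-binding inter-alpha-trypsin inhibitor heavy chain Itih3 (0.20). The nearest to Cspg5 were Ifitm10 (0.27) and Sox3, a transcription factor of neural progenitors (0.28). For Ptprz1 they were Zfp496 and Slc22a3 (both 0.15), for Hapln1 Abhd1 (0.15) and Disp2 (0.19), and for Bcan, by its uncalled probe set, Lrfn4 (0.15) and Mpv17l (0.17). Acan lay nearest to Rpl14 (0.05) and Ucn2 (0.06), and the Vcan probe set 1388265_x_at, taken for its small SE, to Trdn (0.05) and Fabp6 (0.06). These distances are descriptions, and small ones are common where a probe set varies little.

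Genes that build and sulfate chondroitin sulfate chains moved both ways, with 4 of 18 tested genes higher and 6 lower (3 and 6 with arrays centred) and a median difference of 0.01, against 0.13 over all genes. Over all genes 28.7% were higher only and 18.2% lower only, and 18.8% and 21% with arrays centred. The counts of this list and of those below are to be read beside these shares. B3gat3, which adds the last sugar of the linker that carries the chain, rose by 1.65 ± 0.34 (adjusted p = 0.0031). Papss1, which makes the sulfate donor, rose by 1.59 ± 0.20 (adjusted p = 2.0e-04). Chsy1, a chondroitin synthase, fell by 1.05 ± 0.14 (adjusted p = 2.5e-04). Xylt2, a xylosyltransferase that starts the chain, fell by 0.96 ± 0.25 for 1 of 3 probe sets (adjusted p = 0.012), and 2 of the 3 were called lower.

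Of 13 tested genes of hyaluronan synthesis, binding and turnover, 4 were higher and 6 lower (1 and 6 with arrays centred, where 18.8% and 21% of all genes were called), with a median difference of -0.11. Besides Hapln2, Has2, a hyaluronan synthase, rose by 0.61 ± 0.19 (adjusted p = 0.023), which centring ended (adjusted p = 0.061). The falls were led by Hmmr, a hyaluronan receptor that is also a spindle protein of dividing cells (-3.44 ± 0.38, adjusted p = 7.5e-05, for 1 of 2 probe sets), and Stab1, a scavenger receptor of macrophages and sinusoidal endothelium (-1.94 ± 0.45, adjusted p = 0.0069).

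Among receptors and ligands of the members, 5 of 27 tested genes were higher and 7 lower (3 and 8 with arrays centred), with a median difference of -0.13. Cntn1, contactin-1, a partner of Ptprz1 and Tnr, read 7.19 to 9.53 in O4+ cells and 0.315 to 1.00 in A2B5+ cells, a rise of 3.80 ± 0.30 (adjusted p = 9.3e-06). Nfasc, neurofascin, which also binds Tnr, rose by 5.10 ± 0.95 on 1 array B probe set (adjusted p = 0.0051), and all 5 of its tested probe sets were called higher. Nrcam, an adhesion molecule of the same family, fell by 2.16 ± 0.48 (adjusted p = 0.012), with all 3 of its probe sets lower. Egfr, the epidermal growth factor receptor, fell by 3.52 ± 0.48 (adjusted p = 0.0010), with 2 of 3 probe sets lower. Cntn1 and Nfasc moved in the direction of Tnr, Cntn1 moved opposite to Ptprz1, and Nrcam fell.

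Of 20 tested proteases of lecticans and their inhibitors, 2 were higher, 4 were lower and 1 had probe sets called both ways (2, 6 and 1 with arrays centred), with a median difference of -0.32. Adamts4, a protease that cleaves Bcan, Vcan and Acan, read 10.5 to 17.6 in O4+ cells and 0.607 to 1.00 in A2B5+ cells, a rise of 4.28 ± 0.20 (adjusted p = 4.3e-06). Plat, tissue plasminogen activator, fell by 1.87 ± 0.26 (adjusted p = 3.7e-04). Mmp24, a membrane-type metalloprotease, had 2 probe sets higher (the larger 1.30 ± 0.21, adjusted p = 8.4e-04) and 1 lower (-1.60 ± 0.28, adjusted p = 0.0014), so it has no direction here.

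Other proteoglycans and matrix proteins were lower more often, with 17 of 35 tested genes lower and 6 higher (18 and 5 with arrays centred) and a median difference of -0.50. Over all genes 18.2% were lower only and 28.7% higher only (21% and 18.8% with arrays centred). Gpc1, a glypican, rose by 2.13 ± 0.20 (adjusted p = 2.3e-05) and Matn2, a matrilin, by 1.62 ± 0.36 (adjusted p = 0.0051). Sparc, a matrix protein of vessels and glia, fell by 2.08 ± 0.46 (adjusted p = 0.0051) and Srgn, the proteoglycan of blood cell granules, by 2.07 ± 0.21 (adjusted p = 4.3e-05).

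**Figure D4:**
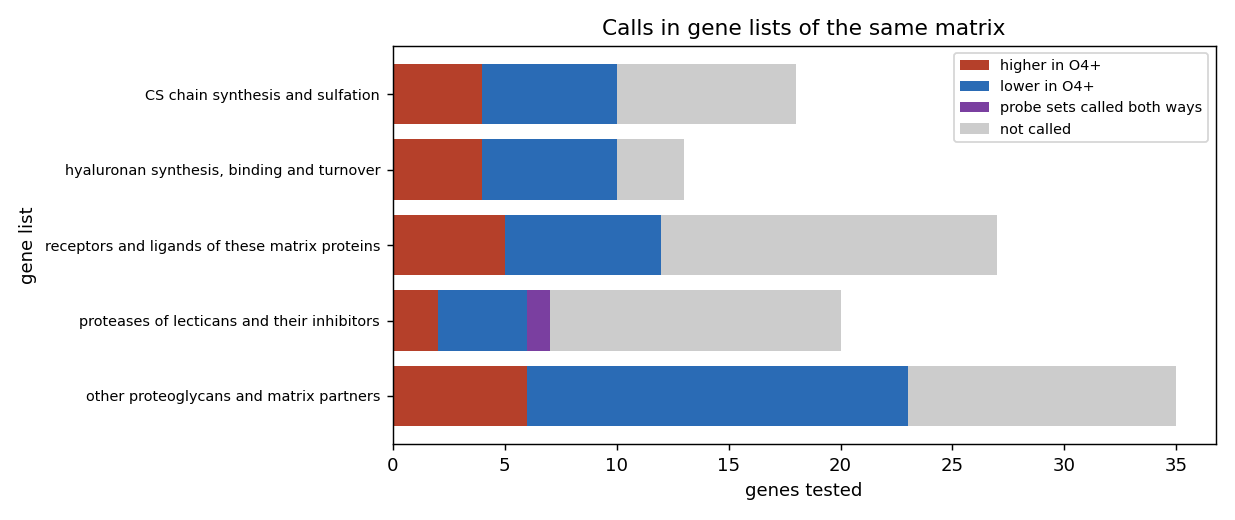
Number of tested genes in 5 lists of matrix genes, split into genes higher in O4+ cells, lower, with probe sets called both ways, and not called. Lower calls outnumber higher calls in each list, from 6 against 4 for the chondroitin sulfate (CS) and hyaluronan lists to 17 against 6 for other proteoglycans. Over all genes 28.7% were higher only and 18.2% lower only. With arrays centred these shares were 18.8% and 21%, so lower calls then outnumbered higher calls over all genes too.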

How the data were processed

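Total RNA of 4 O4+ and 5 A2B5+ replicates was hybridised to 2 array types. The authors deposited linear ratios. The submitters' processing notes name GCRMA with no version, and the step from GCRMA values to ratios is stated by no source used here. Over the 9 arrays of a type, 12995 of the 15923 array A probe sets had a median ratio of exactly 1, as had 11050 of the 15333 array B probe sets. Depth is unknown for arrays, and their number limits the precision.

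Samples were grouped by title. The log2 of each ratio, with no offset, was fitted in limma 3.58.1 (R 4.3.3; lmFit and eBayes, two-sided) on each array type alone, over 13098 and 11136 probe sets that were not controls and had a ratio of at least 1 on at least 4 arrays. The fit was tested on simulated data. Probe sets of a gene were kept apart. Platform annotation named the genes, and RefSeq held the gene identifier of 12754 of 12789 probe sets with 1 symbol (array A) and of 7530 of 7570 (array B). A gene of a list counts as higher where a probe set was called higher and none lower. A bound is the O4+ mean over a ratio of 1, given where the median ratio and all A2B5+ ratios were under 1.

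Members and lists were chosen with earlier results of these data known. Named genes are the members and, from each list, the 2 largest called rises and falls, with the 2 nearest patterns per member. Alternatives were centring, quantile normalization, other filters, an offset of 0.25, low ratios set to 1, array weights, a replicate block and leaving out each replicate. Replicate numbers were not taken to pair samples, since the labels do not say what a number shares. On array A, same-numbered deviations correlated from 0.02 to 0.31 and differently numbered ones from -0.30 to 0.35. These values do not settle whether samples of a number were paired. Array B was not used for this check, since its O4+ numbers did not match those of array A. Which array type carries the original O4+ numbers is not known, so the check on array A has the same limit. This limit also holds for the replicate block, which was fitted on both array types.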

Additional observations from a re-analysis of the deposited data

Results flagged for a closer look

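Of 34 groups of member values, 4 had 1 array far from the others on the log2 scale, where chance gives about 1 in 20. For Acan 1368836_a_at, O4+ replicate 2 stood at 1.73, above the other O4+ arrays at 1.07 to 1.12, and without it the difference was 0.36 and not called (adjusted p = 0.077). For Vcan 1371233_at, which did not pass the filter, O4+ replicate 2 stood at 0.879, above 0.639 to 0.666. For Acan 1387355_at, A2B5+ replicate 2 stood at 0.521, below the other A2B5+ arrays at 0.937 to 1.00. For Bcan 1369831_at, O4+ replicate 3 stood at 1.76, above 0.970 to 1.02, and this probe set was not called with or without it.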

How the results depend on the processing

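Over 15 tested member probe sets and 17 alternatives, 228 of 255 differences kept their direction and their side of the threshold, 25 lost their call and 2 gained one, and 0 changed sign. The lost calls were those of Acan (both probe sets), Vcan 1388265_x_at and, with quantile normalization, Vcan 1388142_at. The 2 gained were the Hapln1 probe sets with array weights, which made the count of lower probe sets on array B 1 in place of 0. The count of 8 higher probe sets on array A was 5 with arrays centred and 4 with quantile normalization, 5 to 8 with single replicates left out, and 9 without a filter, which added Vcan 1371233_at. With the replicate number as a replicate block it was 6, both Acan calls being lost, and 4 were lower. In that fit A2B5+ replicate 5, which has no O4+ array of its number, adds nothing to the differences. Over all array A probe sets, the 4259 higher calls became 2439 with centring, 2192 with quantile normalization and 7128 without a filter. They became 4129 with the replicate block and 3015 to 4678 with single replicates left out. For Ncan and Vcan 1371233_at, ratios under 1 on all arrays limit what can be read.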
